A study of Mus musculus with 13 samples.

Results

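The nuclear genes of oxidative phosphorylation were followed in 13 RNA-seq libraries from punches of the mouse ventral tegmental area, a dopamine-rich midbrain region. Members were all gene rows whose symbol begins with Nduf, Uqcr, Atp5 or Cox followed by a digit from 4 to 8, or is Sdha, Sdhb, Sdhc or Sdhd. Names ending in -ps, which mark pseudogenes, were left out, and 10 or more normalized counts were required in at least 2 of the 13 libraries. Gene copies under other names, Ndufb4c and Ndufa11b, stayed in. The patterns matched 98 symbols, 2 of them -ps names, and 94 of the remaining 96 passed the count filter. These 94 stand among 26264 genes in the table and 17755 that pass the same filter.

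C57BlJ/6 mice of both sexes received a virus carrying GFP or Setd7, a lysine methyltransferase known to methylate histone H3, in the ventral tegmental area at postnatal day 14. Punches were taken in adulthood, with or without earlier exposure to social defeat stress as adults. Without defeat there were 3 libraries with GFP (1 from a female) and 4 with Setd7 (2 from females), called GFP control and Setd7 control. With defeat there were 4 with GFP (2 from females) and 2 with Setd7 (1 from a female), called GFP defeat and Setd7 defeat. The series title speaks of stress early in life, but the labels of these samples give virus, adult defeat and sex, and no such group. Every group had virus surgery, and the sources used here give neither the promoter and cell type of virus expression nor the adult age. The labels do not state that each library is 1 animal, so p-values measure the spread between these samples. The column number of Setd7 defeat replicate 1 is longer than the number in its title, so whether it holds 1 animal is not settled.

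Complexes I to IV pass electrons from NADH and succinate to oxygen, and I, III and IV pump protons across the inner mitochondrial membrane. Complex V, the ATP synthase, uses the returning protons to make ATP. Neurons draw most of their ATP from this chain. Mitochondrial DNA encodes a few core subunits, and the nucleus encodes all others together with the assembly factors. The transcription factors NRF1, the ETS-family factor GABP (also called NRF2) and YY1 are known to bind many promoters of these nuclear genes. Of the mitochondrially encoded subunits, 0 of 13 genes are in the table, and they are not analysed here.

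The stretches below show what the promoters of 4 members hold, 3 of those that stood highest in Setd7 defeat (Ndufb4, Atp5h and Uqcrh) and 1 that did not (Ndufc2). They were chosen after their values were seen. Other members, such as Atp5c1, Atp5j2 and Cox7b, also stood highest there and are not shown. Whether the letters go with the levels was not tested. Each is the 250 bases before the start of the gene in RefSeq, build GRCm38.p6, read 5′ to 3′ on the gene's strand, with matches to the NRF1, ETS and YY1 letters in capitals. Positions are chr16:37654369-37654618 (minus strand), chr11:115419920-115420169 (minus), chr4:116075071-116075320 (minus) and chr7:97399753-97400002 (plus). The deposited counts were made on GRCm39, and these positions were not used with them.
Ndufb4: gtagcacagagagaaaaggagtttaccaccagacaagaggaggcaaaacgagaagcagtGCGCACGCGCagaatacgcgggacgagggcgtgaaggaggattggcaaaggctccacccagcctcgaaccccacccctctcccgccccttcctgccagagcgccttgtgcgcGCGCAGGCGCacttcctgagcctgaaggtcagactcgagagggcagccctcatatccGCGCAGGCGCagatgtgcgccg
Atp5h: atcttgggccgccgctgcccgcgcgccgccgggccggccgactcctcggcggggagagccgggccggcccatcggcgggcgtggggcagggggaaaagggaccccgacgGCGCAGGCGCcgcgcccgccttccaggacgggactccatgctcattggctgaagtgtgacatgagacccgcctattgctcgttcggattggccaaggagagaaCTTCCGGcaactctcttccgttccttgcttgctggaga
Uqcrh: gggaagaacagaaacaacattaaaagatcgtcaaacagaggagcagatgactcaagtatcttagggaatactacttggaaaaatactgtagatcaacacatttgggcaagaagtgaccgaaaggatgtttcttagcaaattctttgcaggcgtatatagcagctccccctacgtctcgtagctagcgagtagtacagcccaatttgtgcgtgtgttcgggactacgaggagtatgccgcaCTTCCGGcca
Ndufc2: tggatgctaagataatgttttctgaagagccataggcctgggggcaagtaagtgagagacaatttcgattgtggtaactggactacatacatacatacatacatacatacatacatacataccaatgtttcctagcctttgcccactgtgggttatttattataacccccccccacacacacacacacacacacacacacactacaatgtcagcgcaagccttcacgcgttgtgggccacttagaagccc

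The Ndufb4 stretch held 3 NRF1 matches, beginning 191, 79 and 22 bases before the start. Atp5h held 1 NRF1 match at 141 bases and 1 ETS match at 38 bases, and Uqcrh held 1 ETS match at 10 bases. The stretch of Ndufc2 held none of the 3 motifs. RefSeq windows from 250 bases before to 50 after the start were at hand for 76 of the 94 members and 27025 genes in all, and both strands were searched. The NRF1 letters, GCGCA, any base and GCGC, were in the windows of 25% of member genes and 5.19% of all genes. ETS letters CCGGAAG were in 25% against 9.93%, and YY1 letters AAGATGGCG in 10.5% against 1.64%. An ETS and a YY1 match can overlap, since the first ends and the second begins with AAG. The SP1 letters GGGCGG were in 44.7% of member genes against 38.2% of all genes, CCAAT in 43.4% against 41.1%, and TATAAA in 9.21% against 15.7%. The members passed a count filter and the 27025 genes did not, and the part of expression in these differences was not tested. A match is a description of the letters and not a bound site.

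Libraries held 26.5 to 50.8 Mreads (reads counted in genes, in units of 1e6), and the members took 0.471 to 0.575% of them. Normalized counts of Setd7 were 10888 to 14538 in the 7 GFP libraries and 28587 to 158681 in the 6 Setd7 libraries. Pairs of libraries within a group differed by more than counting error (chi-square divided by its degrees of freedom, 15.6 to 49.5). Th, the dopamine synthesis enzyme, read 2508 to 3392 in 3 libraries, called low-Th below (replicates 2 and 3 of GFP control, replicate 1 of GFP defeat). The other 10 read 9760 to 19110.5. Summed markers of thalamus, another brain region, reached 55477 in GFP control and 33498 in GFP defeat against 15606 to 17695 in the Setd7 groups.

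Levels per gene length were highest for Atp5b and Atp5a1, of the ATP synthase head. Normalized counts per kilobase of exon, averaged over the 13 libraries, were 16197 for Atp5b and 8700 for Atp5a1, the beta and alpha subunits that form the catalytic hexamer. Next came Cox4i1 (8485), Cox8a (6716) and the c-ring gene Atp5g3 (5309). The other head genes were lower, Atp5d at 3064, Atp5e at 1222 and Atp5c1 at 810. Complex II was led by Sdha, its flavoprotein subunit, at 4196, and complex III by the core protein gene Uqcrc1 at 3859. The lowest of the 94 were genes of isoforms known from other tissues or conditions, Cox8b (15.6), Cox4i2 (25.1), Cox6a2 (31.9), Ndufa4l2 (53.4), Cox6b2 (67.1) and Cox7a1 (73.9). Exon length joins all exons annotated for a gene, 4912 bases for Atp5g1. Reads on rows of matching sequence, such as Gm12338 for Cox7c, are not added, so the order is approximate.

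The members shared 1 pattern across libraries. For each gene, its log2 deviation from its own mean over the 13 libraries was taken, and the median of the 94 deviations was found in each library. These medians were −0.24, −0.10 and 0.06 with GFP alone, −0.05, 0.08, 0.03 and −0.06 with GFP and defeat, 0.18, 0.01, 0.03 and 0.00 with Setd7 alone, and 0.06 and 0.01 with Setd7 and defeat. GFP control replicate 1 lay lowest and Setd7 control replicate 1 highest. In the first of these, 11 of 94 members were above their own mean, and in the second 91 of 94. The pooled within-group SD of the library medians was 0.0952. Here and below, fewer cells of a type and less RNA per cell cannot be told apart, because the tissue was sequenced in bulk.

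**Figure D1:**
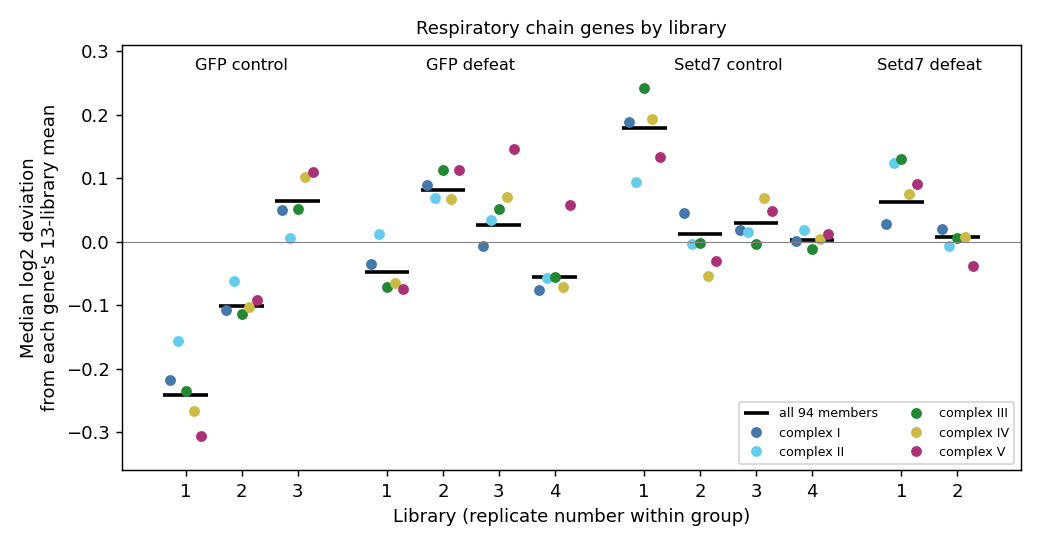
Each point is the median log2 deviation of 1 complex in 1 library (x axis, replicate number within each group), and the bar is the median of all 94 members. All 5 complexes lie lowest in GFP control replicate 1, where the bar is at −0.24, and the bar is highest in Setd7 control replicate 1 at 0.18.

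All 5 complexes were lowest in the same library, while complex II was highest in Setd7 defeat replicate 1 (0.12) and complex V in GFP defeat replicate 3 (0.15). In GFP control replicate 1 the medians were −0.22 for complex I (47 members), −0.16 for complex II (4), −0.24 for complex III (8), −0.27 for complex IV (18) and −0.31 for complex V (17). In Setd7 control replicate 1 they were 0.19, 0.09, 0.24, 0.19 and 0.13. Of single members, 51 of 94 had their lowest value of the 13 libraries in GFP control replicate 1, as did 12.8% of all genes tested. Setd7 control replicate 1 held the highest value of 30 members, and 6.18% of all genes had theirs there. The median over all genes tested was 0.00 to 0.01 in every library.

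Most members varied together from library to library. The correlation of a member with the median of the other 93 over the 13 libraries had a median of 0.65, and 63 members (67%) were above 0.5, against 9.79% of the other 17661 genes. The points share library, depth and scaling, and no p is given. Highest were Ndufa6 (0.93) and Ndufb10 (0.91), of complex I, Sdhd (0.93), a membrane anchor of complex II, and Atp5a1 (0.92). Below 0 were 6 members, Cox8b (−0.47), Cox6a2 (−0.35), Ndufa4l2 (−0.24), Ndufaf6 (−0.15), Ndufb4c (−0.07) and Ndufs6 (−0.02). Cox8b passed the count filter only through GFP control replicates 1 and 2, where the members were lowest, so the filter favoured its negative value.

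Medians of other mitochondrial lists lay nearer 0 in GFP control replicate 1. The median there was −0.07 for 16 tricarboxylic acid cycle genes, −0.09 for 33 other assembly factors of the chain, −0.06 for 78 mitochondrial ribosomal proteins and 0.02 for 20 genes of mitochondrial biogenesis and DNA maintenance. Cytosolic ribosomal proteins (84 genes) were at −0.24, as low as the chain itself. Setd7 control replicate 1, where the chain was highest, had cytosolic ribosomal proteins at −0.01. General neuron markers (10 genes) moved with the members in part, at −0.21 in GFP control replicate 1, 0.15 in Setd7 control replicate 1 and 0.21 in GFP control replicate 3, and their part in the pattern was not tested. GFP control replicate 1 also had the lowest depth, 26.5 Mreads against 30.9 to 50.8 Mreads elsewhere, and the part of depth was not tested. Muscle markers summed to 80.9 to 160 counts in all 13 libraries. The heart and muscle isoform genes Cox8b, Cox6a2 and Cox7a1 averaged 5.63, 21.7 and 39.5 counts, and the part of muscle in them was not tested.

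The first comparison asked how Setd7 virus changed these genes without defeat (Setd7 control against GFP control). Most members lay higher with Setd7, by little: 83 of 94 had a log2 fold change above 0, against 51.4% of all genes, with a median of 0.16 against 0.01. No member passed an adjusted p of 0.05 by limma, and 0% of all genes did. At an unadjusted p under 0.05, 12 of 94 were higher (12.8%, against 4.31% of all genes) and 0 lower (against 3.7%). Every Setd7 control library lay above every GFP control library for 14 members (14.9%, against 4.17% of all genes), and below for 0 (against 4.09%). Dopamine neuron markers moved with this comparison, with 14 of 14 above 0 (median 0.98) and summed levels of 35069 to 96280 in GFP control against 86979 to 164477 in Setd7 control, and thalamus markers were below 0 in 10 of 10 (median −1.39). Microglia markers were above 0 in 10 of 10 (0.41), oligodendrocyte markers in 9 of 10 (0.16) and general neuron markers in 8 of 10 (0.10). Their part in the shift of the members was not tested. Complex V was above 0 in 17 of 17 members (median 0.16), complex III in 8 of 8 (0.19), complex II in 4 of 4 (0.09), complex I in 40 of 47 (0.17) and complex IV in 14 of 18 (0.17).

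By role, the NADH-binding module of complex I was above 0 in 7 of 7 members (median 0.12), the membrane arm and linking subunits in 23 of 25 (0.20) and the assembly factors in 5 of 8 (0.09). The membrane arm and linking group also holds subunits of the arm in the matrix, such as Ndufa6, Ndufa9 and Ndufa12. Here and below it is thus not the membrane arm alone, and the NADH-binding module is not complete. In complex V the catalytic head was above 0 in 5 of 5 (0.08), the c-ring genes in 3 of 3 (0.16) and the stalk and membrane subunits in 9 of 9 (0.19). The size of this shift depended on GFP control replicate 1. Without it, 69 of 94 members were above 0, the median was 0.04, and 3 had an unadjusted p under 0.05. GFP control is then replicates 2 and 3 alone, both low-Th. They were also high in the thalamus marker Tcf7l2 (9009 and 9559, against 1869 in GFP control replicate 1). Without GFP control replicate 3, which was high, the median was 0.22 and 36 had such a p. Leaving out GFP control replicate 2 gave 7 members with such a p, and leaving out Setd7 control replicate 1 gave 3. Without the 3 low-Th libraries, where GFP control is replicate 1 alone and is taken to vary like the other groups, the median was 0.32.

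Ndufc2, a membrane-arm subunit of complex I, stood out among the members. Its normalized counts were 781, 927 and 952 with GFP alone, 1098, 1186, 1047 and 1094 with GFP and defeat, 1288, 1108, 1149.9 and 1127 with Setd7 alone, and 989 and 998 with Setd7 and defeat. All 3 GFP control libraries lay below the other 10, and Setd7 defeat lay between GFP control and the remaining groups without overlap. The log2 fold change of Ndufc2 for Setd7 without defeat was 0.40 ± 0.09 (SE), with an unadjusted p of 0.000636 and adjusted p = 0.539 by limma. On the recovered reads DESeq2 gave Ndufc2 an adjusted p of 0.0344, the 1 member among the 35 genes it called in this comparison (0.197% of all genes), and edgeR gave 0.568.

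Atp5j2 codes for a small membrane subunit of the ATP synthase, known as f. Its counts were 156, 168 and 113 with GFP alone, 153, 171, 222 and 201 with GFP and defeat, 237, 229, 229.8 and 179 with Setd7 alone, and 271 and 240.4 with Setd7 and defeat. All 6 Setd7 libraries were above all 3 GFP control libraries (0.59 ± 0.19 without defeat, adjusted p = 0.547 by limma), while the GFP defeat libraries overlapped with Setd7 control. Ndufa3, another membrane-arm subunit, read 493, 636 and 660.3 with GFP alone and 876, 769, 661 and 693 with Setd7 alone. Its values were 651, 697, 675 and 690.4 with GFP and defeat, and 719 and 714 with Setd7 and defeat. The highest GFP control library and the lowest Setd7 control library differed by about 1 count, at 0.33 ± 0.12 (adjusted p = 0.579 by limma).

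**Figure D2:**
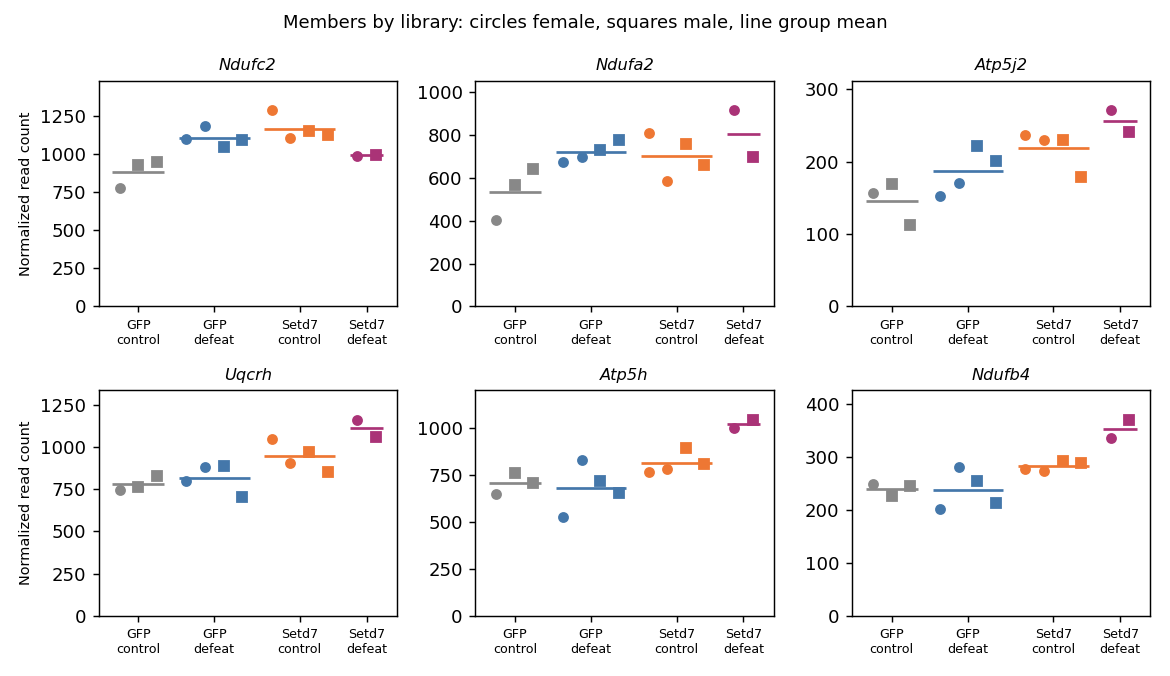
Normalized read counts of 6 members in each library (circles female, squares male, lines group means). Ndufc2 is lowest in the 3 GFP control libraries, and Uqcrh, Atp5h and Ndufb4 are highest in the 2 Setd7 defeat libraries.

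Among the members below 0 with the smallest p, differences were small. Cox7a2, the common form of a small complex IV subunit, read 1775, 1799 and 1947 with GFP alone, 1833, 1903, 2039 and 1845 with GFP and defeat, 1844, 1676, 1686 and 1750.5 with Setd7 alone, and 1912 and 1626 with Setd7 and defeat. All groups overlapped, and the fold change without defeat was −0.08 ± 0.08 (adjusted p = 0.802 by limma). Ndufs5, of the membrane arm, read 301, 283 and 313 with GFP alone, 271, 309.8, 234 and 279 with GFP and defeat, 321, 297, 258 and 246 with Setd7 alone, and 271 and 291 with Setd7 and defeat, again with overlap throughout (−0.12 ± 0.12). Ndufaf1, an assembly factor, read 807, 800.3 and 846 with GFP alone, 771, 783, 751 and 857 with GFP and defeat, 854, 748, 789 and 701 with Setd7 alone, and 779 and 807 with Setd7 and defeat (−0.09 ± 0.09).

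The next comparison asked how defeat changed the members in mice with GFP virus (GFP defeat against GFP control), and it shares its 3 control libraries with the first. Above 0 were 72 of 94 members, against 49.6% of all genes, with a median of 0.08 against −0.00. By limma 0 members and 0% of genes passed. At an unadjusted p under 0.05, 7 members were higher (7.45%, against 4.87% of all genes) and 2 lower (2.13%, against 4.38%), Cox4i2 and Cox8b. Cox8b passed the count filter through GFP control libraries alone, so its place below that group was favoured by the filter. Groups did not overlap for 2 members that were higher, Ndufa2 and Ndufc2 (2.13%, against 4.26%), and 1 that was lower, Cox4i2 (1.06%, against 4.74%), so these shares were below those over all genes. DESeq2 on the recovered reads called 0 members, against 0.479% of genes. Dopamine neuron markers were above 0 in 14 of 14 (median 0.86), with summed levels of 37948 to 155711 in GFP defeat. Thalamus markers were below 0 in 8 of 10 (−0.71), oligodendrocyte markers above 0 in 9 of 10 (0.22) and meningeal fibroblast markers below 0 in 8 of 8 (−0.29), and the part of these markers in the members' values was not tested. Without GFP control replicate 1 the median was −0.01, with 43 of 94 above 0 and 1 member higher at an unadjusted p under 0.05. There too, the GFP control libraries left are both low-Th. Without GFP control replicate 3 the median was 0.16 and 26 were higher at such a p, and without GFP defeat replicate 3 only 2 were. Without the 3 low-Th libraries the median was 0.31.

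Complex V was above 0 in 15 of 17 members (median 0.20) after defeat with GFP, complex IV in 13 of 18 (0.14), complex II in 4 of 4 (0.08), complex III in 5 of 8 (0.07) and complex I in 35 of 47 (0.06). The NADH-binding module of complex I had 3 of 7 above 0 (median −0.03). Ndufa2, a subunit of the NADH-binding module, read 403, 565 and 639.8 with GFP alone and 675, 699.7, 733 and 777 with GFP and defeat. With Setd7 alone this gene read 811, 585, 761 and 659, and with Setd7 and defeat 916 and 700.0. GFP defeat lay above GFP control in all 4 libraries (0.47 ± 0.16, adjusted p = 0.423 by limma), and Setd7 control overlapped both. Ndufc2 was 0.32 ± 0.09 higher after defeat with GFP (adjusted p = 0.374 by limma). Cox7a2l is known as a factor of supercomplexes of III and IV, and its function in this mouse strain was not examined. It read 1878, 2096 and 2347 with GFP alone, 2326, 2367, 2689.8 and 2286 with GFP and defeat, 2288, 2169.5, 2367 and 2406 with Setd7 alone, and 2565 and 2219.6 with Setd7 and defeat. GFP defeat overlapped GFP control through replicate 3 of the latter (0.21 ± 0.09, adjusted p = 0.493 by limma). On the low side were Ndufb4c (−0.15 ± 0.09), Ndufs5 (−0.16 ± 0.12) and Cox6b2 (−0.37 ± 0.29), and their groups overlapped.

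The third comparison asked how Setd7 virus changed the members among defeated mice (2 Setd7 against 4 GFP libraries). Here the members were not shifted as a block: 53 of 94 were above 0, against 50.8% of all genes, with a median of 0.02 against 0.00. By limma 0 members and 0% of genes passed. A subset stood higher, with 10 members at an unadjusted p under 0.05 (10.6%, against 2.59% of all genes) and 1 lower (1.06%, against 2.26%). Both Setd7 defeat libraries lay above all GFP defeat libraries for 16 members (17%, against 7.09%) and below for 8 (8.51%, against 6.98%). DESeq2 called 0 members, against 0.0338% of genes. The c-ring genes were below 0 in 3 of 3 (median −0.15), and the NADH-binding module above 0 in 6 of 7 (0.15). Without Setd7 defeat replicate 1, 14 members had such a p on the higher side and 3 on the lower. Without replicate 2 these were 4 and 1, and leaving out single libraries gave medians of −0.03 to 0.07. Meningeal fibroblast markers were above 0 in 8 of 8 (median 1.04) and endothelial and mural markers in 10 of 10 (0.25), and their part in the members' values was not tested.

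Atp5h, the d subunit in the peripheral stalk of the ATP synthase, read 648, 762 and 708 with GFP alone, 526, 831, 719 and 652 with GFP and defeat, 769, 781, 892 and 807 with Setd7 alone, and 1003 and 1045 with Setd7 and defeat. The 2 Setd7 defeat libraries were the highest of the 13, and both Setd7 groups lay above GFP control. The difference after defeat was 0.60 ± 0.14 (unadjusted p = 0.00102, adjusted p = 0.990 by limma). Uqcrh, the hinge protein of complex III, read 746, 759.6 and 825 with GFP alone, 796, 879.5, 889 and 701 with GFP and defeat, 1048, 904, 972 and 848 with Setd7 alone, and 1159 and 1060.0 with Setd7 and defeat. Setd7 defeat was again above all other libraries (0.45 ± 0.11, adjusted p = 0.990 by limma).

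Ndufb4, of the complex I membrane arm, read 249, 226 and 245 with GFP alone, 202, 282, 255 and 214 with GFP and defeat, 277, 274, 293 and 289.5 with Setd7 alone, and 337 and 371 with Setd7 and defeat. Its Setd7 defeat libraries lay above all other 11 (0.58 ± 0.15, adjusted p = 0.990 by limma). Against Setd7 control, the differences were 0.34 ± 0.14 for Atp5h, 0.32 ± 0.15 for Ndufb4 and 0.24 ± 0.11 for Uqcrh (adjusted p = 0.9999 for each by limma). A near-identical gene row, Ndufb4c, read 1032 and 997 in Setd7 defeat and 803 to 939 in GFP defeat, so its own difference was smaller (0.19 ± 0.10). Ndufb4c held more counts than Ndufb4 in all 13 libraries, and was highest in Setd7 control replicate 2 (1146) and GFP control replicate 1 (1050). The rank of Ndufb4 thus holds for its own row, and the reads of both rows together were not tested.

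On the low side, Ndufaf6, an assembly factor of complex I, read 143, 99.9 and 137 with GFP alone, 133, 128, 105 and 104 with GFP and defeat, 128, 120.2, 94.9 and 132 with Setd7 alone, and 83.2 and 78.6 with Setd7 and defeat. Its 2 Setd7 defeat libraries were the lowest of the 13 (−0.52 ± 0.20 against GFP defeat, adjusted p = 0.990, and −0.54 ± 0.20 against Setd7 control, adjusted p = 0.9999, by limma). Ndufb7, of the membrane arm, read 202, 303 and 368 with GFP alone, 371, 351, 321 and 363 with GFP and defeat, 465, 361, 324 and 335 with Setd7 alone, and 237 and 329 with Setd7 and defeat. Of its 2 Setd7 defeat libraries, 1 was below every library but GFP control replicate 1, and the other overlapped GFP defeat (−0.33 ± 0.22 against GFP defeat).

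In the last single comparison, defeat in mice with Setd7 virus (Setd7 defeat against Setd7 control), the members stayed centred on 0. Above 0 were 46 of 94, against 48% of all genes, and the median was −0.00 against −0.01. By limma 0 members and 0% of genes passed. At an unadjusted p under 0.05, 1 was higher (1.06%, against 1.45% of all genes), Atp5h, and 4 lower (4.26%, against 1.13%), Cox8b, Ndufaf6, Ndufb1 and Ndufc2. Without Setd7 defeat replicate 1 these were 4 higher and 1 lower, without Setd7 control replicate 1 they were 2 and 2 with 64 of 94 above 0, and without each other library 0 to 2 and 3 to 6. Meningeal fibroblast markers were above 0 in 8 of 8 (median 1.08) and endothelial and mural markers in 9 of 10 (0.28), and their part in these values was not tested. Non-overlap was found for 7 higher (7.45%, against 4.18%) and 7 lower (7.45%, against 4.96%). DESeq2 called 0 members, against 0.0394% of genes. Ndufb1, a small membrane-arm subunit, read 306, 393 and 403 with GFP alone, 399.7, 389.9, 366 and 352 with GFP and defeat, 466, 421, 437 and 406 with Setd7 alone, and 318 and 358 with Setd7 and defeat. All 4 Setd7 control libraries were above the other 9 (−0.36 ± 0.13 for defeat with Setd7, adjusted p = 0.9999 by limma). Ndufc2 was −0.23 ± 0.10 in the same comparison (adjusted p = 0.9999 by limma).

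**Figure D3:**
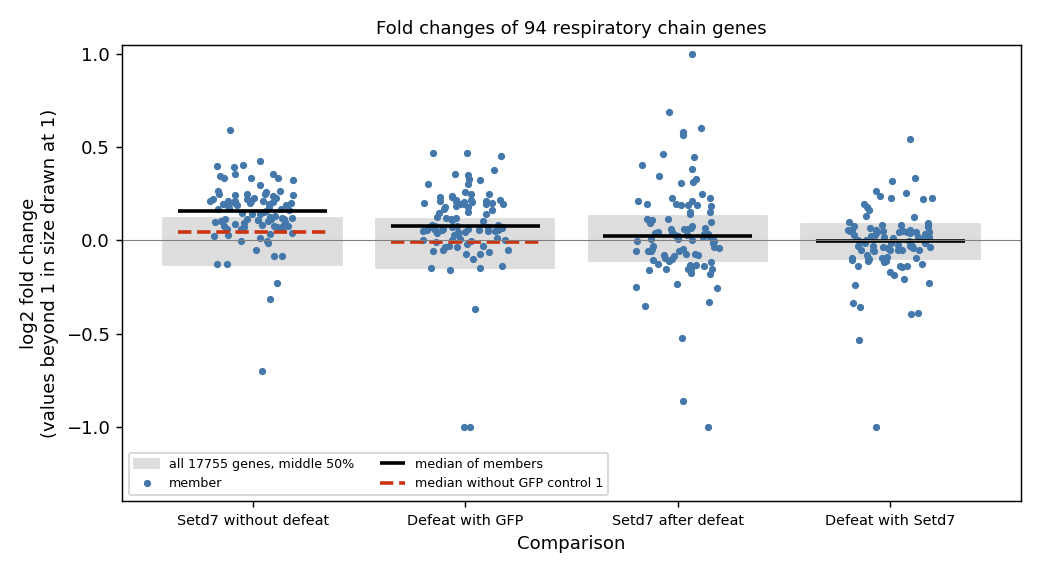
Log2 fold changes of the 94 members (points) in the 4 single comparisons, with their median (black line) and the middle 50% of all 17755 genes (grey band), where values beyond 1 in size are drawn at 1. The median is 0.16 and 0.08 in the first 2 comparisons and 0.04 and −0.01 without GFP control replicate 1 (dashed line), where the GFP control libraries left are both low-Th.

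Whether defeat acted differently under Setd7 was asked by the interaction, the defeat effect with Setd7 minus that with GFP. Above 0 were 27 of 94 members, against 50.1% of all genes, with a median of −0.11 against 0.00. By limma 0 members and 0% of genes passed, with 1 member higher (1.06%, against 2.51%) and 5 lower (5.32%, against 2.45%) at an unadjusted p under 0.05. The smallest p was that of Ndufc2, which was higher after defeat with GFP and lower after defeat with Setd7 (−0.55 ± 0.13, unadjusted p = 0.00125, adjusted p = 0.942 by limma). Others on the low side were Atp5g3 (−0.42 ± 0.17), Ndufb7 (−0.72 ± 0.30), Ndufb1 (−0.41 ± 0.18) and Ndufa13, all with adjusted p = 0.942 by limma. Dopamine neuron markers were above 0 in 0 of 14 (median −0.88), thalamus markers in 8 of 10 (0.56), meningeal fibroblast markers in 8 of 8 (1.37) and endothelial and mural markers in 10 of 10 (0.23), and their part in the members' values was not tested. The 5 lower members became 17 without GFP control replicate 3, 8 without Setd7 defeat replicate 1 and 1 to 6 without each other library. The median was −0.01 without GFP control replicate 1, −0.21 without GFP control replicate 3, −0.05 without Setd7 defeat replicate 2 and −0.32 without the 3 low-Th libraries.

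Setd7 averaged over defeat gave 79 of 94 members above 0 (against 51% of all genes), a median of 0.07, and 17 members higher (18.1%, against 3.7%) and 1 lower (1.06%, against 3.42%) at an unadjusted p under 0.05. By limma 0 members passed, against 0.00563% of genes, which is 1 gene. Defeat averaged over virus gave 69 of 94 above 0 (against 50.3%), a median of 0.04, and 1 member higher (1.06%, against 2.34%) and 2 lower (2.13%, against 2.83%), Cox8b and Ndufaf6. Without GFP control replicate 1 these medians were 0.02 and −0.01, and without GFP control replicate 3 they were 0.12 and 0.08. The 17 members higher with Setd7 became 10 without GFP control replicate 1 and 27 without GFP control replicate 3. The 1 higher with defeat became 11 without GFP control replicate 3, and 0 to 7 without each other library. The first median was 0.05 without Setd7 defeat replicate 1, and the second median 0.08 without Setd7 control replicate 1. Setd7 defeat against GFP control gave 79 of 94 above 0 (against 51.1%) and a median of 0.12. At an unadjusted p under 0.05, 10 were higher (10.6%, against 4.04%) and 2 lower (2.13%, against 4.25%), again Cox8b and Ndufaf6. The median was 0.01 without GFP control replicate 1, 0.20 without GFP control replicate 3 and 0.08 without Setd7 defeat replicate 1. The 10 became 21 without GFP control replicate 3. Cox8b passed the count filter through GFP control libraries alone, so its place among the lower members here was favoured by the filter.

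Between the sexes, 41 of 94 members were above 0 in females (against 48.9% of all genes), with a median of −0.01. Of the 94, 0 were higher at an unadjusted p under 0.05 (against 2.06%) and 2 were lower (2.13%, against 1.81%), Atp5g1 and Atp5o. By limma 0 members passed, against 0.062% of genes. Atp5o, the stalk subunit that confers oligomycin sensitivity, read 537 to 773 in the 6 female libraries and 697 to 849 in the 7 male ones, with overlap (−0.24 ± 0.08, adjusted p = 0.999 by limma). The median moved to 0.05, with 68 members above 0, without GFP control replicate 1, which is female.

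The c-ring of the ATP synthase is the rotor that protons turn, and 3 genes, Atp5g1, Atp5g2 and Atp5g3, code for the same mature subunit with different targeting sequences. Atp5g3 read 2887, 3415 and 4099.5 with GFP alone, 4061, 4269, 4271 and 3646 with GFP and defeat, 4625, 3594, 4013 and 3939 with Setd7 alone, and 3621 and 3532 with Setd7 and defeat. Its Setd7 defeat libraries lay below all GFP defeat libraries (−0.18 ± 0.13, adjusted p = 0.990 by limma). Atp5g2 read 1837, 2012 and 2296 with GFP alone, 2459.6, 2117, 2536 and 2389 with GFP and defeat, 2425, 2106, 2193 and 2369 with Setd7 alone, and 2487 and 1823 with Setd7 and defeat. Atp5g1 read 544, 721 and 805 with GFP alone, 592, 845, 915 and 794 with GFP and defeat, 734, 608, 859 and 694 with Setd7 alone, and 731 and 772 with Setd7 and defeat. Groups overlapped for both. The share of the 3 genes' counts that came from Atp5g3 was 52.9 to 59.4% over the 13 libraries, that from Atp5g2 29.3 to 36.4% and that from Atp5g1 8.32 to 12.6%, so the order of the genes was the same everywhere on the count scale, which is not per length.

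The 6 isoform genes of complex IV were mixed, and their difference from the common subunits was not tested. In the first comparison 3 of 6 were above 0 (median −0.11) where 10 of 11 common complex IV subunits were (0.19). In defeat with GFP the counts were 2 of 6 (−0.22) and 10 of 11 (0.17). In GFP control replicate 1, where common complex IV subunits had a median deviation of −0.36, the isoform genes were at 0.07. Across the 13 libraries Cox7a1 had a correlation of 0.73 with the median of the other members, and the other 5 isoform genes had −0.47 to 0.13. These isoform values include Cox8b, which passed the count filter through GFP control libraries alone. Their counts were low, so each value carries a large counting error.

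Cox4i2, the oxygen-responsive form of subunit 4, was the 1 member lower in every GFP defeat library than in every GFP control library. It read 19.6, 21.4 and 24.8 with GFP alone, 14.2, 15.6, 5.87 and 8.06 with GFP and defeat, 25.1, 25.2, 20.5 and 20.4 with Setd7 alone, and 21.1 and 35.2 with Setd7 and defeat. The 4 GFP defeat libraries were the lowest of the 13 (−1.07 ± 0.38 for defeat with GFP, adjusted p = 0.451 by limma). After defeat it was 1.34 ± 0.43 higher with Setd7 (adjusted p = 0.990), and the interaction was 1.32 ± 0.57 (adjusted p = 0.942), both by limma. Cox4i2 made up 0.0944 to 0.229% of the summed counts of Cox4i1 and Cox4i2 in GFP defeat and 0.298 to 0.561% elsewhere. Its partner Cox4i1 read 5139, 6062 and 7435 with GFP alone, 6432, 6800.3, 6212 and 6388 with GFP and defeat, 7394, 6632, 6503 and 6094 with Setd7 alone, and 7054 and 6240.2 with Setd7 and defeat, with all groups overlapping.

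Cox4i2 and Ndufa4l2 are known in brain from mural cells of vessels. Summed endothelial and mural markers (10 genes) were 15931 to 16740 in GFP control, 15287 to 16284 in GFP defeat, 14891 to 17471 in Setd7 control and 18400 to 21751 in Setd7 defeat. Meningeal fibroblast markers (8 genes) summed to 2034 to 5167 in the first 3 groups and to 2718 and 15139 in Setd7 defeat. Their part in the isoform values was not tested. Ndufa4l2, a hypoxia-responsive relative of the complex IV subunit Ndufa4, read 56.1, 55.7 and 17.2 with GFP alone, 63.5, 39.5, 41.1 and 35.3 with GFP and defeat, 49.1, 35.6, 53.9 and 58.1 with Setd7 alone, and 62.2 and 80.9 with Setd7 and defeat. Setd7 defeat lay above GFP control and above Setd7 control (0.54 ± 0.45 against the latter, adjusted p = 0.9999 by limma), and the other pairs of groups overlapped. Ndufa4 itself read 536, 662 and 894 with GFP alone, 771, 922, 916 and 748 with GFP and defeat, 922, 805, 728 and 798 with Setd7 alone, and 728 and 776 with Setd7 and defeat.

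**Figure D4:**
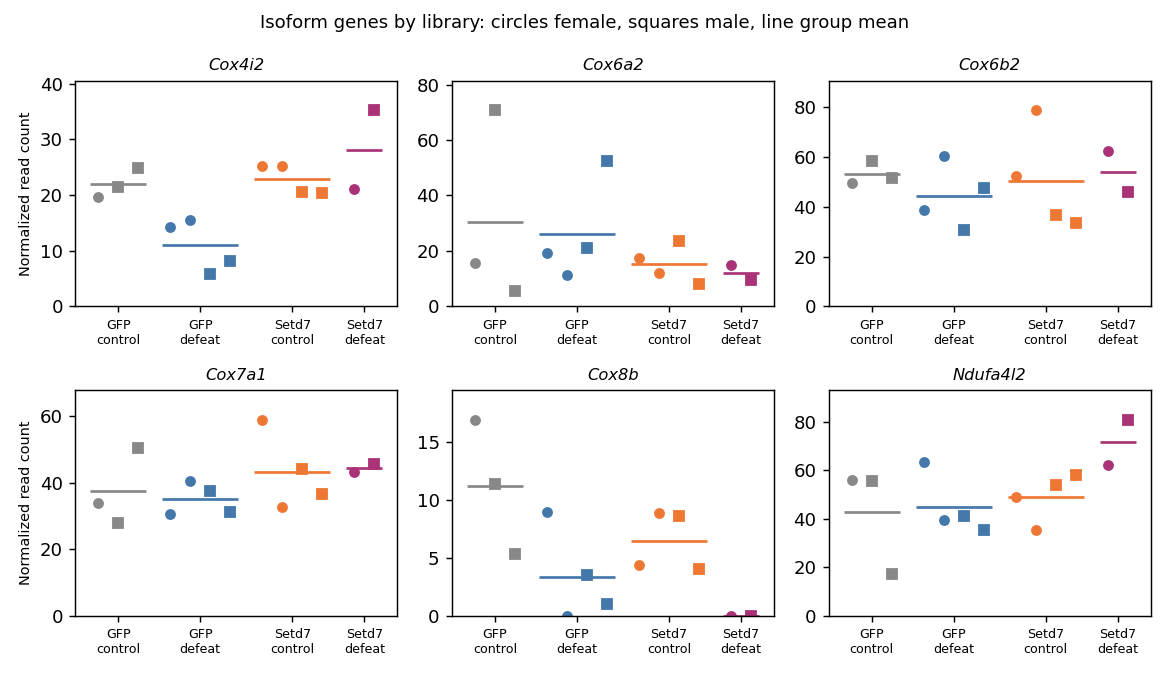
Normalized read counts of the 6 complex IV isoform genes in each library (circles female, squares male, lines group means). Cox4i2 is lowest in the 4 GFP defeat libraries, Cox8b is listed at 0 in both Setd7 defeat libraries, and Cox6a2 peaks at 70.7 and 52.4 in 1 library of each GFP group.

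Cox8b and Cox6a2 are heart and muscle forms of small complex IV subunits. Cox8b read 17.0, 11.4 and 5.39 with GFP alone, 8.97, 0, 3.52 and 1.01 with GFP and defeat, 4.37, 8.90, 8.63 and 4.08 with Setd7 alone, and 0 in both libraries with Setd7 and defeat. It passed the count filter through 2 GFP control libraries alone, which were the only ones at 10 or more, and is the member just inside the threshold. With 3 reads per library as the floor, Setd7 defeat was at least 1.99-fold lower than the mean of Setd7 control, taken as exact. The Setd7 control libraries held 4, 12, 8 and 4 reads, and their counting error is not in this bound. No fold is given against GFP control, whose values admitted the gene, or against GFP defeat, whose mean of 3.37 is near that floor of 3.26. Just outside the threshold, the testis form Cox7b2 read 0 to 9.83 and Cox8c was listed at 0 in every library. Cox8a, the common partner, read 2715, 3408 and 4157 with GFP alone, 3631, 3719.8, 3821 and 3821 with GFP and defeat, 3981, 3439.8, 3880.2 and 3899 with Setd7 alone, and 4114 and 3431 with Setd7 and defeat.

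Cox6a2 read 15.6, 70.7 and 5.39 with GFP alone, 19.4, 11.4, 21.1 and 52.4 with GFP and defeat, 17.5, 11.9, 23.7 and 8.16 with Setd7 alone, and 15 and 9.38 with Setd7 and defeat. Its 2 high libraries, GFP control replicate 2 and GFP defeat replicate 4, were also the 2 with the highest thalamus markers, at median deviations of 2.15 and 1.42, and the part of that tissue was not tested. Cox6a1, its common partner, read 2148, 2719 and 3263 with GFP alone, 2815, 3286, 3090.3 and 3048 with GFP and defeat, 3382, 2621, 3036 and 3219.6 with Setd7 alone, and 2761 and 2794 with Setd7 and defeat. The Setd7 defeat values lay below all GFP defeat values (−0.14 ± 0.13).

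Cox6b2, a testis form, read 49.6, 58.5 and 51.7 with GFP alone, 38.9, 60.3, 30.5 and 47.4 with GFP and defeat, 52.4, 78.6, 36.7 and 33.6 with Setd7 alone, and 62.2 and 45.7 with Setd7 and defeat. Its partner Cox6b1 read 2791, 2659 and 2819 with GFP alone, 2608, 3022, 2623 and 2689.9 with GFP and defeat, 3032, 3379, 2789.6 and 2613 with Setd7 alone, and 3011 and 3219 with Setd7 and defeat. Groups overlapped for Cox6b2 in every single comparison. Cox7a1, another heart and muscle form, read 33.9, 27.8 and 50.6 with GFP alone, 30.6, 40.5, 37.6 and 31.2 with GFP and defeat, 59.0, 32.6, 44.2 and 36.7 with Setd7 alone, and 43.1 and 45.7 with Setd7 and defeat, where both libraries lay above GFP defeat (0.34 ± 0.33, adjusted p = 0.990 by limma).

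Several members share sequence with other gene rows. In GENCODE M21, 24 of 91 members with a coding sequence had at least 1 other gene matching it at 95% identity or more over at least 100 bases, and 27 of 94 overlapped an exon of another gene. The members without a coding sequence there were Ndufa11b, Ndufb4c and Ndufb1, which that release names Ndufb1-ps. The pseudogene Gm12338, which matches the coding sequence of Cox7c at 100%, held 2801 to 3795 counts against 265 to 403 for Cox7c itself. Ndufb4c, annotated in GENCODE as a processed pseudogene with the full Ndufb4 coding sequence, read 1049.8, 889 and 974 with GFP alone, 886, 939, 803 and 935 with GFP and defeat, 977, 1146, 882 and 937 with Setd7 alone, and 1032 and 997 with Setd7 and defeat. Uqcr10, a small complex III subunit, held 541 to 860 counts, and 4930481A15Rik, a non-coding gene with a partial match, held 546 to 802. Values of these members are therefore uncertain singly.

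**Figure D5:**
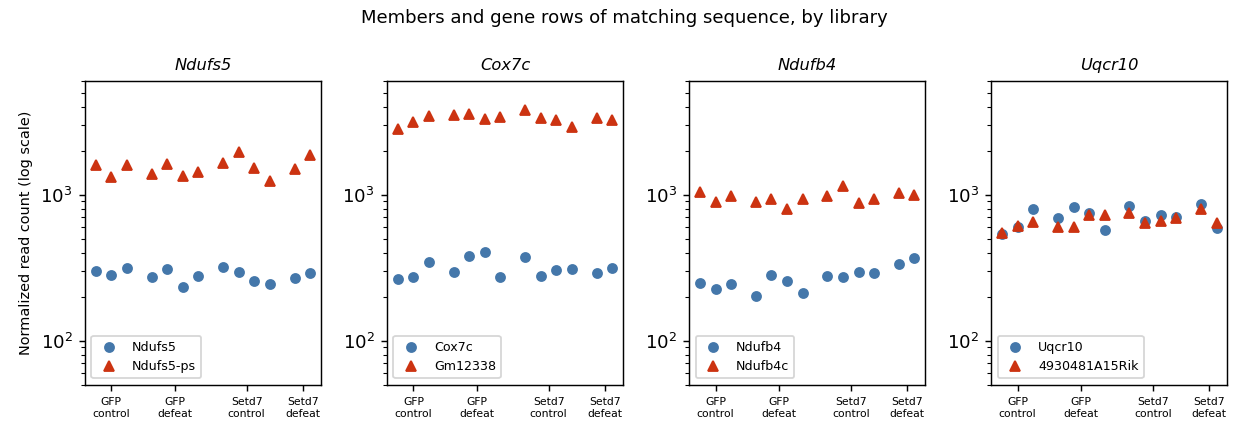
Normalized read counts (log scale) of 4 members (circles) and of a gene row with matching sequence (triangles) in each library. The rows Ndufs5-ps, Gm12338 and Ndufb4c lie above their members in all 13 libraries, and 4930481A15Rik lies near Uqcr10.

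The part of such copies in the block pattern was not tested. The search took coding sequences alone, so the members with none found include Ndufa11, though Ndufa11b is named as a gene copy. For Setd7 without defeat the median was 0.18 over the 24 members with a copy and 0.12 over the 67 with none found. It was 0.20 over 51 members coding for at most 150 residues and 0.11 over 40 longer ones, where 1001 other genes of at most 150 residues had a median of 0.09 (669 above 0). For defeat with GFP these were 0.11 and 0.07 by copy, 0.17 and 0.06 by length, and 0.05 over the other short genes.

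Other mitochondrial lists lay nearer 0 than the members did, and cytosolic ribosomal proteins did not. For Setd7 without defeat, 12 of 16 tricarboxylic acid cycle genes were above 0 (median 0.05, with 0 at an unadjusted p under 0.05). Citrate synthase Cs was 0.14 ± 0.07 (adjusted p = 0.664) and fumarase Fh1 0.14 ± 0.07 (adjusted p = 0.633), both by limma. Other assembly factors were above 0 in 23 of 33 (0.03, 2 at such a p and 0 on the low side), with Sdhaf1, which matures the iron-sulfur subunit of complex II, at 0.33 ± 0.14. Mitochondrial ribosomal proteins were above 0 in 66 of 78 (0.09, 5 higher and 0 lower at such a p) and cytosolic ribosomal proteins in 77 of 84 (0.20, 27 and 0). Regulators of mitochondrial biogenesis went the other way in 15 of 20 (−0.03, 0 at such a p), among them Polg, the mitochondrial DNA polymerase (−0.19 ± 0.10), and Ppargc1b (−0.15 ± 0.09).

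After defeat with GFP, 8 of 16 cycle genes (0.00), 20 of 33 assembly factors (0.05), 48 of 78 mitochondrial ribosomal proteins (0.03), 76 of 84 cytosolic ribosomal proteins (0.17) and 6 of 20 biogenesis genes (−0.02) were above 0, and Ppargc1a, the coactivator of the programme, was −0.18 ± 0.09 (adjusted p = 0.558 by limma). After defeat, Setd7 gave 14 of 16 cycle genes above 0 (0.07) and 13 of 33 assembly factors (−0.03), including Cox11, a copper chaperone of complex IV, at −0.34 ± 0.10 (adjusted p = 0.990 by limma). Both of these medians lay further from 0 than that of the members (0.02). In the same comparison Tfb1m, known for methylating mitochondrial ribosomal RNA, was 0.61 ± 0.20, and Tfam, which packages mitochondrial DNA, −0.18 ± 0.09 (adjusted p = 0.990 for both by limma). Electron carrier genes, which include cytochrome c and the coenzyme Q pathway, were above 0 in 12 of 18, 10 of 18 and 10 of 18 in these 3 comparisons (medians 0.05, 0.02 and 0.01).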

How the data were processed

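Total RNA was isolated from tissue punches with RNeasy Micro columns and made into RiboZero libraries, per the labels' protocols. Per the submitters' processing notes, Bowtie2, featureCounts, DESeq2 and GRCm39 were used, and their versions, the annotation and strand setting are not given in the sources used here. Bowtie2 aligns reads without splicing. The authors deposited 1 table of signal, counts divided by size factors, for 26264 genes in 13 libraries, and all 341432 values were whole multiples of 1 step per library within 0.01 read. Whole reads were recovered by dividing by that step. The members and lists were chosen with earlier results of these data known.

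Genes with 10 or more normalized counts in at least 2 libraries (17755) were tested with limma 3.58.1 with trend (R 4.3.3) on log2(normalized count + 1), with 4 group means and a sex term, two-sided, Benjamini-Hochberg adjustment and a threshold of 0.05. Fold changes are on the log2(value + 1) scale and understate changes of low genes. Counts of members above 0 and medians carry no test. The fit was tested on simulated data. Named were, in each of the 4 single comparisons, the 3 members above and the 3 below 0 with the smallest p and a mean of at least 30 counts, the complex IV isoform genes with their partners, the c-ring genes and members at the count threshold. Atp5o, Cox7c, Uqcr10, the members with printed promoters, those at the ends of the library correlations and those counted by name were chosen after their values were seen. Alternatives were a pseudocount of 0.5 or 5, no filter or a mean of 50, TMM and upper-quartile scaling, no sex term, only the groups compared, robust fitting, edgeR 4.0.16 and DESeq2 1.42.0 on the recovered reads, each library left out, and, added after seeing the data, the 3 low-Th libraries left out. Lengths, overlaps and copies came from GENCODE M21 (GRCm38), matched by symbol only. Promoter letters came from RefSeq (GRCm38.p6). Replicate numbers follow accession order and pair no samples.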

Additional observations from a re-analysis of the deposited data

Results flagged for a closer look

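The median deviation of the 94 members in Setd7 control replicate 1 was 0.18, far above the 0.00 to 0.03 of the other 3 libraries of its group. Atp5j2 in Setd7 control replicate 4 read 179, far below the 229 to 237 of the other 3. Of 60 sets of 4 libraries examined, 2 held such an outlying sample, and chance gives 1 in 20, or 3.

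The pseudogene rows left out of the members held reads: Ndufs5-ps had a median of 1524 normalized counts over the 13 libraries, where Ndufs5 held 234 to 321, and Cox7c-ps1 had a median of 453, where Cox7c held 265 to 403. Neither passed the test (for Setd7 without defeat 0.04 ± 0.13 and 0.06 ± 0.15, adjusted p = 0.949 and 0.930 by limma).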

How the results depend on the processing

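Counts and medians moved little with pseudocount, filter, scaling, sex term, robust fitting or the groups in the fit, and mostly with the libraries used. By a lenient rule, 643 of these values were kept and 17 moved. A median was kept if it shifted by less than the pooled SD of 0.0952, and a count if equal or close in ratio. The defeat with GFP median, 0.08 and −0.01 without GFP control replicate 1, was thus kept. Most counts of called members were 0 in every fit, so the tally is no measure of stability. Leaving out each library in turn gave medians of 0.04 to 0.22 for Setd7 without defeat (69 to 87 members above 0), −0.01 to 0.16 for defeat with GFP (43 to 79), −0.03 to 0.07 for Setd7 after defeat (41 to 61), −0.04 to 0.04 for defeat with Setd7 (35 to 64) and −0.21 to −0.01 for the interaction (22 to 46). For both together they were 0.01 to 0.20 (50 to 85), for Setd7 averaged over defeat 0.02 to 0.12 (57 to 85), for defeat averaged over virus −0.01 to 0.08 (40 to 78) and for sex −0.04 to 0.05 (28 to 68). Limma called 0 members each time. Leaving out GFP control replicate 1 set an end of the range of medians for all but Setd7 after defeat and defeat with Setd7, among them 0.0436 for Setd7 without defeat, −0.00602 for the interaction and 0.0114 for both together. The GFP control libraries left in that setting are both low-Th.

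Without the 3 low-Th libraries the medians were 0.32 for Setd7 without defeat, 0.31 for defeat with GFP, −0.32 for the interaction (14 members above 0), 0.33 for both together and 0.16 for defeat averaged over virus, and 79 members were above 0 in females. There GFP control is replicate 1 alone, the library lowest in these genes. In the same setting the sign was reversed for 2 members, at 2.435e-05 (Cox7a2, Setd7 without defeat) and 0.31 (Cox6b2, Defeat with GFP), and the cause was not tested. DESeq2 on the recovered reads called 1 member for Setd7 without defeat, Ndufc2, and 0 in the other 8 comparisons, and edgeR called 0 in all 9. With Cox8b at its bound, the medians of the comparisons with Setd7 defeat were the same. No paired analysis was possible because the replicate numbers were given in accession order and mark no shared animal or batch. Groups of 2 to 4 libraries limit what could be called.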
